A study of Mus musculus with 9 samples.

Results

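The acyl-CoA thioesterase genes are described here across the colon epithelium of mice that ate heme or did not. They are the 10 genes Acot1, Acot2, Acot3, Acot4, Acot7, Acot8, Acot9, Acot11, Acot12 and Acot13, of 19938 genes named on the array. They were taken from the array's annotation by symbol, with each gene's probeset selected on the highest mean log2 level over the 9 pools. Each of the 10 genes had 1 probeset and none shared a probeset with another gene, so the measured means chose nothing. The genes themselves were chosen with earlier results of these data known, and counts over the list therefore carry no weight of their own.

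Heme is the pigment that makes meat red. The heme group ate 0.2 µmol of it per g of a diet rich in fat (40% of energy), and pools were made after 2, 4, 7 and 14 days. The control group ate that diet with no heme added, and its pools were made on the same days and on day 0. All mice were male C57BL/6J animals of 9 to 11 weeks, an inbred laboratory strain, and all had eaten the control diet for 1 week before. The epithelium was scraped from opened and washed colons, and RNA was pooled within a diet and day before hybridisation, 4 mice to a pool except for 3 in the control pool of day 2. This gave 4 heme pools and 5 control pools with 1 array each, and the day 0 control pool has no heme partner. Differences between animals are averaged within a pool, and every p-value below measures the spread between pools of different days. In tissue pools, a change in RNA per cell and a change in the number of cells that make it cannot be told apart.

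Acyl-CoA thioesterases split fatty acyl-CoA into a free fatty acid and coenzyme A, the reverse of what acyl-CoA synthetases do. They thereby set how much activated fatty acid and how much free coenzyme A a compartment holds. The family has a pair of unrelated protein folds. The type I enzymes are close relatives with an alpha/beta hydrolase fold and are known targets of the fatty acid receptor PPAR alpha in mouse liver. The type II enzymes have the hotdog fold, a wider range of substrates and separate gene loci.

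The type I genes stand side by side. In the RefSeq annotation of mouse build GRCm38.p6, Acot2, Acot1, Acot4, Acot3, Acot5 and Acot6 follow each other in that order on chromosome 12 between positions 83987861 and 84109783, a stretch of 121.9 kb. Acot1 spans positions 84009502 to 84017670, Acot2 83987861 to 83993877, Acot3 84052144 to 84060400 and Acot4 84037254 to 84044723. Of the type II genes, Acot7 lies on chromosome 4 at 152178100 to 152271855 and Acot11 on the same chromosome at 106744555 to 106805007. Acot8 lies on chromosome 2 at 164792768 to 164820219, Acot12 and Acot13 on chromosome 13 at 91741326 to 91786148 and 24817955 to 24831489, and Acot9 on chromosome X at 155262443 to 155297654. Probe sequences were not used here, and how far the probesets of the closely related type I genes take up each other's transcripts was not tested.

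The sequences upstream of the 4 genes whose levels rose are shown. These genes were picked for their calls, so that their shared direction is no finding of its own. Whether they share a regulator was not tested. They come from the 250 bases before the start that the RefSeq promoter table of GRCm38.p6 uses, 5′ to 3′ on the plus strand, which is that of all 4 genes. Capitals mark the stretch closest to the direct repeat that PPAR and its partner RXR are known to bind, searched on both strands and spelled AGGTCA, any 1 base (N), AGGTCA. Acot1 is shown at chr12:84009252-84009501 and Acot2 at chr12:83987611-83987860. For Acot4 and Acot12 the table's start lies inside the span given above, and only 30 bases around the match are shown, at chr12:84038349-84038378 and chr13:91741403-91741432.
Acot1: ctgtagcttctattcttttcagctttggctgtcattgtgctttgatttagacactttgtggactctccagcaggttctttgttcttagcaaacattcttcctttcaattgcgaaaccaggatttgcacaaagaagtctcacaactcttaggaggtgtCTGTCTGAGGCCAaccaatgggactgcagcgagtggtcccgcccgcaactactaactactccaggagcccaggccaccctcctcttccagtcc
Acot2: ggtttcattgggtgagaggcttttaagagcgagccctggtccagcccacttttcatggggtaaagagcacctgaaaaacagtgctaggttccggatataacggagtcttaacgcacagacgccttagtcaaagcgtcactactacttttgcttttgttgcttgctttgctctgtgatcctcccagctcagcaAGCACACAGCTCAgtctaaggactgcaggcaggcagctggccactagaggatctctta
Acot4: ggctcagccccgaagcaTGACCTTTGGCCG
Acot12: taggacccTGACCTCTCACCTcctaagcac
The closest stretch differed from the motif at 1 of its fixed letters in Acot12, at 2 in Acot4, at 3 in Acot2 and at 4 in Acot1, where the marked stretch is the first of 2 equally close ones. In the genes that were not called it differed at 3 in Acot11, at 4 in Acot3 and Acot9, and at 5 in Acot7 and Acot8. Acot11 was thus as close as Acot2, and Acot3 and Acot9 as close as Acot1. No window was given for Acot13. Of 32851 promoter windows of the same length, 0.484% held a stretch with at most 1 difference, 3.24% with at most 2, 21.3% with at most 3 and 74.5% with at most 4. The single repeat unit AGGTCA occurred in the windows of Acot4 and Acot12, on the opposite strand and within the marked stretch, and in none of the windows of Acot1, Acot2, Acot3, Acot7, Acot8, Acot9 and Acot11, against 14% of all windows. Its absence says only that these letters are not in the window.

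The pools were checked against cell type markers. The 10 markers of colon epithelium, among them Epcam and the water channel Aqp8, averaged 11.67 to 11.70 log2 in the heme pools and 11.58 to 11.65 log2 in the control pools. Aqp8 differed most of the 10, with means of 12.20 log2 in heme and 11.54 log2 in control pools. Vil1, Krt8, Krt20 and Car1 were slightly higher with heme, and Epcam (11.68 against 11.72 log2), Cdh1, Slc26a3, Muc2 and Lgr5 slightly lower. Markers of the exocrine pancreas stood apart in both pools of day 2, at 10.02 log2 in the heme pool and 9.41 log2 in the control pool, against 4.94 to 5.14 log2 in the other heme pools and 4.90 to 4.96 log2 in the other control pools. The 6 smooth muscle markers ranged from 7.09 to 9.18 log2 in the heme pools and from 7.25 to 9.90 log2 in the control pools, with the highest value of each diet on day 7. The part of these pools in the results was not tested beyond leaving them out. The 6 fibroblast markers ranged from 7.37 to 8.34 and from 7.46 to 8.64 log2, and the immune markers from 5.99 to 6.20 and from 6.05 to 6.40 log2, in heme and control pools. Smooth muscle markers were lower in the heme pool than in the control pool on each shared day. They stood at 7.09 against 7.25, 7.85 against 8.23, 9.18 against 9.90 and 7.34 against 8.63 log2 on days 2, 4, 7 and 14. The part of this difference in the results was not tested. All levels are deposited log2 values made by RMA, and a difference of 1 is a doubling of signal.

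Over all days, 4 of the 10 thioesterase genes rose on the heme diet and none fell. These were Acot1 and Acot2, both more than 2-fold, and Acot4 and Acot12, both about 1.6-fold. The rest divided into 3 genes with small positive differences that did not pass the test (Acot7, Acot8 and Acot9), 2 with differences close to 0 (Acot11 and Acot13) and Acot3, whose signal was too dim to be tested. Across the 14953 genes tested, 0.595% were called higher with limma at an adjusted p under 0.05 and 0.0736% lower, and 9 of the 10 thioesterase genes were among those tested. At an unadjusted p under 0.05 stood 17% of all genes and 6 of the 9, the 4 called ones with Acot8 and Acot9. The 100 genes called in either direction numbered 49, 58, 30, 70 and 48 when the control pool of day 0, 2, 4, 7 or 14 was left out, and 251, 97, 36 and 46 when the heme pool of day 2, 4, 7 or 14 was. The median log2 fold change of these 9 was 0.19, against -0.002 over all genes tested.

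**Figure D1:**
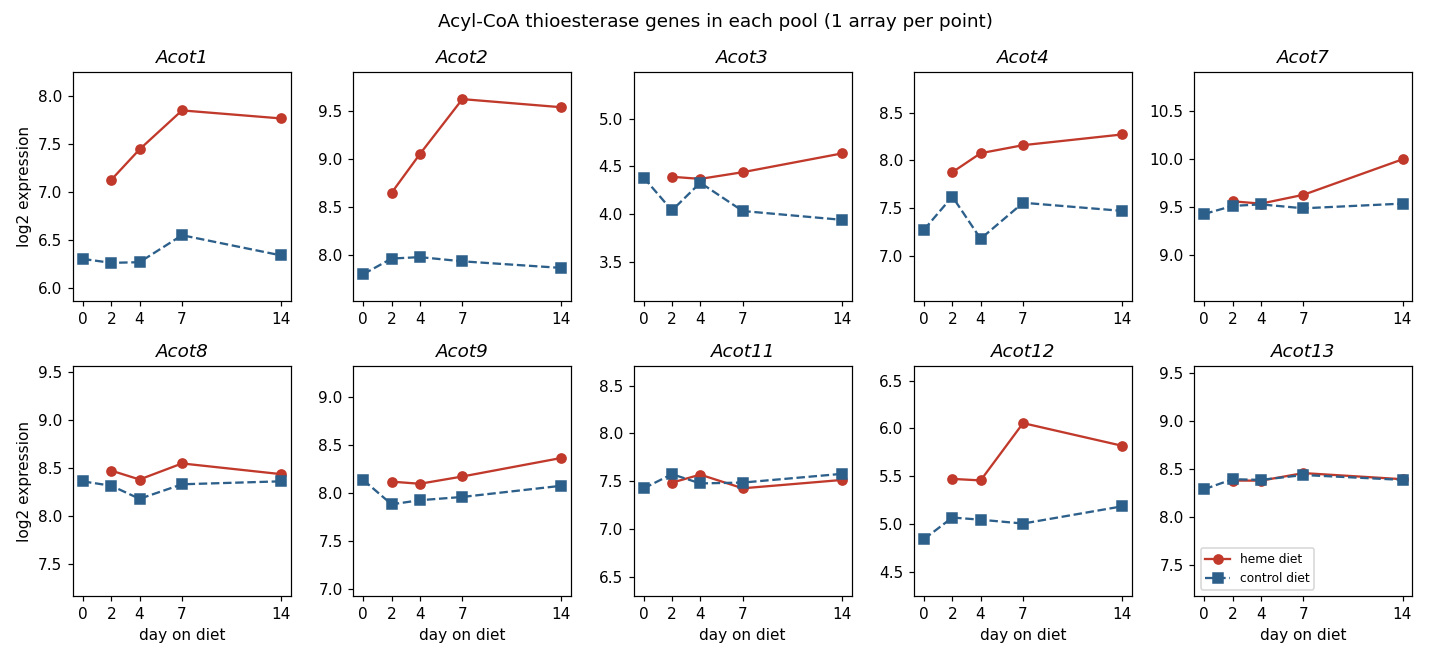
Levels of the 10 thioesterase genes (log2 expression, vertical axes all 2.4 log2 high) by day on diet, with 1 point per pool. Heme pools (red circles, solid lines) lie above control pools (blue squares, dashed lines) throughout for Acot1, Acot2, Acot4 and Acot12, while the lines of Acot11 and Acot13 cross.

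Acot1 is the cytosolic type I enzyme, which acts on long-chain acyl-CoA. Its level (probeset 10397148) was 7.13, 7.45, 7.85 and 7.77 log2 in the heme pools of days 2, 4, 7 and 14, against 6.30, 6.26, 6.27, 6.55 and 6.34 log2 in the control pools of days 0, 2, 4, 7 and 14. Every heme pool lay above every control pool, by at least 0.58 log2, and the heme pool of day 2 was the lowest of its diet. The means were 7.55 ± 0.33 log2 in heme pools (SD, n = 4) and 6.34 ± 0.12 log2 in control pools (SD, n = 5), a 2.31-fold difference (limma log2 fold change 1.21, SE 0.14, 95% interval 0.91 to 1.51, adjusted p = 0.00601).

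Acot2 is the mitochondrial counterpart of Acot1 and works in the matrix, where fatty acids are oxidised. Its level (probeset 10397145) was 8.65, 9.05, 9.63 and 9.54 log2 in the heme pools of days 2, 4, 7 and 14, against 7.80, 7.96, 7.97, 7.93 and 7.86 log2 in the control pools of days 0, 2, 4, 7 and 14. The heme pools of days 7 and 14 were close together and above those of days 2 and 4, while the 5 control pools spanned only 0.18 log2. The 2.48-fold difference came with means of 9.22 ± 0.46 log2 in heme pools (SD, n = 4) and 7.90 ± 0.07 log2 in control pools (SD, n = 5) (limma log2 fold change 1.31, SE 0.17, 95% interval 0.93 to 1.69, adjusted p = 0.00867). Acot1 and Acot2 kept their calls in each of the 9 fits that left out a single pool, with adjusted p up to 0.031 and 0.039, and with the day as a block (adjusted p = 0.00975 and 0.0319), where 0.515% of all genes were called. Without both pools of day 7, a choice made after seeing the data, no gene of the series was called and the log2 fold changes were 1.16 for Acot1 and 1.18 for Acot2 (adjusted p = 0.0565 and 0.087).

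Acot4 is a peroxisomal type I enzyme known in mouse for splitting succinyl-CoA and other dicarboxylic acyl-CoA. Its level (probeset 10397153) was 7.88, 8.08, 8.16 and 8.27 log2 in the heme pools of days 2, 4, 7 and 14, against 7.28, 7.62, 7.18, 7.56 and 7.47 log2 in the control pools of days 0, 2, 4, 7 and 14. The groups did not overlap, although the control pools varied more than those of Acot2, over 0.44 log2. Acot4 rose 1.60-fold, with means of 8.10 ± 0.17 log2 in heme pools (SD, n = 4) and 7.42 ± 0.19 log2 in control pools (SD, n = 5) (limma log2 fold change 0.67, SE 0.10, 95% interval 0.44 to 0.90, adjusted p = 0.0187). The call was lost with the day as a block (log2 fold change 0.64, adjusted p = 0.0588). It was also lost when the control pool of day 0, 4 or 14 was left out (adjusted p = 0.0633, 0.0541 and 0.0548), or the heme pool of day 7 or 14 (0.0839 and 0.0679).

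Acot3, a peroxisomal neighbour of Acot4 with a preference for long-chain acyl-CoA, gave a dim signal. Its level (probeset 10397158) was 4.39, 4.37, 4.44 and 4.64 log2 in the heme pools of days 2, 4, 7 and 14, against 4.38, 4.04, 4.33, 4.03 and 3.94 log2 in the control pools of days 0, 2, 4, 7 and 14. Its mean of 4.29 log2 over the 9 arrays lay under the filter of 4.716 log2, the 25th percentile of gene means, so it has no test in the comparison of diets. The groups overlapped by 0.014 log2, through the heme pool of day 4 and the control pool of day 0, and the difference between the means was 0.31 log2. When all named genes were tested with no filter, Acot3 had an adjusted p of 0.25 in limma.

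Acot12 is the cytosolic type II enzyme that splits acetyl-CoA and is best known from liver. Its level (probeset 10406564) was 5.47, 5.46, 6.06 and 5.82 log2 in the heme pools of days 2, 4, 7 and 14, against 4.84, 5.07, 5.05, 5.01 and 5.19 log2 in the control pools of days 0, 2, 4, 7 and 14. No pools overlapped, and the heme pool of day 7 was the highest. The means were 5.70 ± 0.29 log2 in heme pools (SD, n = 4) and 5.03 ± 0.12 log2 in control pools (SD, n = 5), a 1.59-fold difference (limma log2 fold change 0.67, SE 0.12, 95% interval 0.39 to 0.95, adjusted p = 0.0449). The control level was near the filter value. Markers of hepatocytes, of which 5 were on the array, averaged 6.17 to 6.45 log2 in the heme pools and 6.16 to 6.30 log2 in the control pools, and albumin (Alb) 4.85 log2 in heme and 4.78 log2 in control pools. Their part in the result was not tested.

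The call of Acot12 held in only 2 of the 9 fits that left out a pool, those without the heme pools of days 2 or 4. Leaving out the control pool of day 0, 2, 4, 7 or 14 gave an adjusted p of 0.133, 0.102, 0.135, 0.117 and 0.0796, and leaving out the heme pool of day 7 or 14 gave 0.0905 and 0.146. It was also lost with the day as a block (log2 fold change 0.62, adjusted p = 0.0904), with no filter (0.0544) and with no intensity trend (0.0545). Without both pools of day 2, those with pancreas markers, the log2 fold changes of Acot1, Acot2 and Acot4 were 1.33, 1.52 and 0.80 (adjusted p = 0.004, 0.004 and 0.0113) and that of Acot12 was 0.76 (adjusted p = 0.0619). Without both of day 7, those of Acot4 and Acot12 were 0.69 and 0.55 (adjusted p = 0.145 and 0.229).

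**Figure D2:**
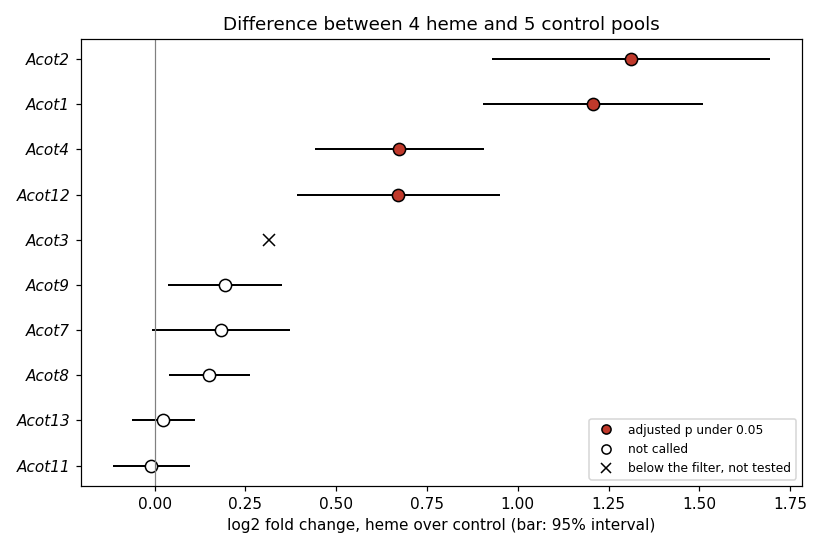
Log2 fold change of each thioesterase gene, 4 heme pools over 5 control pools, with the 95% interval of the limma fit as a bar. Filled points are called at an adjusted p under 0.05 over all genes tested, and these are Acot2 (1.31), Acot1 (1.21), Acot4 (0.67) and Acot12 (0.67). The cross is Acot3 (0.31), which was not tested.

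Acot7, Acot8 and Acot9 were a little higher in the heme pools without passing the test. Acot7, a cytosolic enzyme best known from brain that prefers long-chain substrates such as arachidonoyl-CoA, stood at 9.56, 9.53, 9.63 and 9.998 log2 in the heme pools of days 2, 4, 7 and 14 (probeset 10510687), against 9.43 to 9.53 log2 in the control pools. The heme pool of day 14 stood above the other 3, and the lowest heme pool had the same value as the highest control pool. The log2 fold change was 0.18 (95% interval -0.004 to 0.37, limma adjusted p = 0.301), and 0.076 without the heme pool of day 14.

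Acot8, the peroxisomal type II enzyme, which accepts acyl-CoA of many lengths and bile acid CoA esters, stood at 8.47, 8.38, 8.55 and 8.44 log2 in the heme pools of days 2, 4, 7 and 14 (probeset 10489553). Its control pools lay at 8.18 to 8.36 log2, below every heme pool by as little as 0.018 log2. The log2 fold change was 0.15 (95% interval 0.042 to 0.26, limma adjusted p = 0.203). Acot9, a mitochondrial enzyme, stood at 8.12, 8.10, 8.17 and 8.37 log2 in the heme pools of days 2, 4, 7 and 14 (probeset 10602739), against 7.88 to 8.14 log2 in the control pools. Its groups overlapped through the control pool of day 0, the highest of the control pools (log2 fold change 0.19, 95% interval 0.040 to 0.35, limma adjusted p = 0.231).

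Acot11 and Acot13 differed least between the diets. Acot11, also called Them1 and known from brown fat, ranged from 7.43 to 7.57 log2 in the heme pools and from 7.43 to 7.58 log2 in the control pools (probeset 10514865). Its log2 fold change was -0.009 (95% interval -0.11 to 0.094, limma adjusted p = 0.923), and its sign turned when single pools were left out. Acot13, also called Them2, an enzyme found with mitochondria, ranged from 8.38 to 8.46 log2 in the heme pools and from 8.29 to 8.44 log2 in the control pools (probeset 10408331). Its log2 fold change was 0.024 (95% interval -0.060 to 0.11, limma adjusted p = 0.748). These intervals are not adjusted for the number of genes tested. They do not mark the smallest difference that 9 arrays could call, as Acot8 and Acot9, at 0.15 and 0.19 log2, were not called either.

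**Figure D3:**
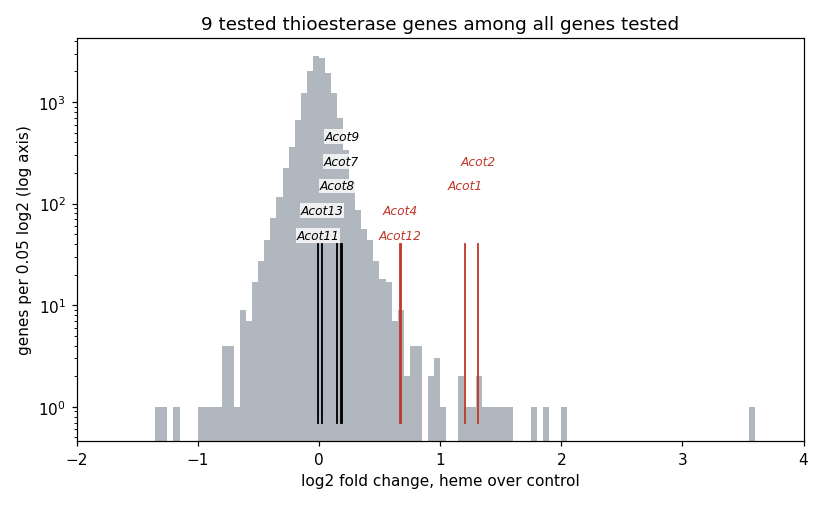
Distribution of log2 fold changes, heme over control, over the 14953 genes tested (gene number per 0.05 log2 on a log axis), with vertical lines at the 9 tested thioesterase genes. Acot1, Acot2, Acot4 and Acot12 (red, called) lie in the far right of the distribution and the other 5 (black, not called) within its body.

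Among the 9 tested genes, heme and control pools did not overlap for 5, namely Acot1, Acot2, Acot4, Acot8 and Acot12, all higher with heme, against 3.26% of all genes tested that were wholly higher and 2.33% wholly lower. The same-day comparison gave the same direction for 7 of the 9, which were above the control pool of their day on all 4 days, against 10.9% of all genes tested. Acot3 did so too, which makes 8 of the 10. For the 5 genes without overlap this had to hold, so among the 9 the same-day comparison adds only Acot7 and Acot9. In rank, Acot2 and Acot1 each had a higher log2 fold change than 99.9% of the genes tested, Acot4 than 99.8% and Acot12 than 99.7%.

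Differences between the pools of the same day rest on 1 pool of each diet and have no test. Both pools of day 2 carried pancreas markers and both of day 7 the highest smooth muscle markers of their diets, as given above. On day 14 the smooth muscle markers averaged 7.34 log2 in the heme pool and 8.63 log2 in the control pool. Against the control pool of the same day, Acot1 was 0.87, 1.18, 1.31 and 1.43 log2 higher in the heme pools of days 2, 4, 7 and 14, which is 1.82-, 2.27-, 2.47- and 2.70-fold. Acot2 was 0.69, 1.08, 1.70 and 1.68 log2 higher on those days, or 1.61-, 2.11-, 3.24- and 3.21-fold. Acot1 thus had the larger difference of the pair on days 2 and 4 and Acot2 on days 7 and 14, in single pools.

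Acot4 was 0.25, 0.90, 0.60 and 0.80 log2 higher than the control pool of the same day on days 2, 4, 7 and 14. Acot12 was 0.41, 0.41, 1.05 and 0.63 log2 higher on those days. Neither of these series rose steadily. Acot7 differed by 0.049, 0.008, 0.14 and 0.46 log2, so that its difference on day 14 exceeded those of the earlier days. Acot3 differed by 0.35, 0.040, 0.41 and 0.69 log2 at its dim level.

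**Figure D4:**
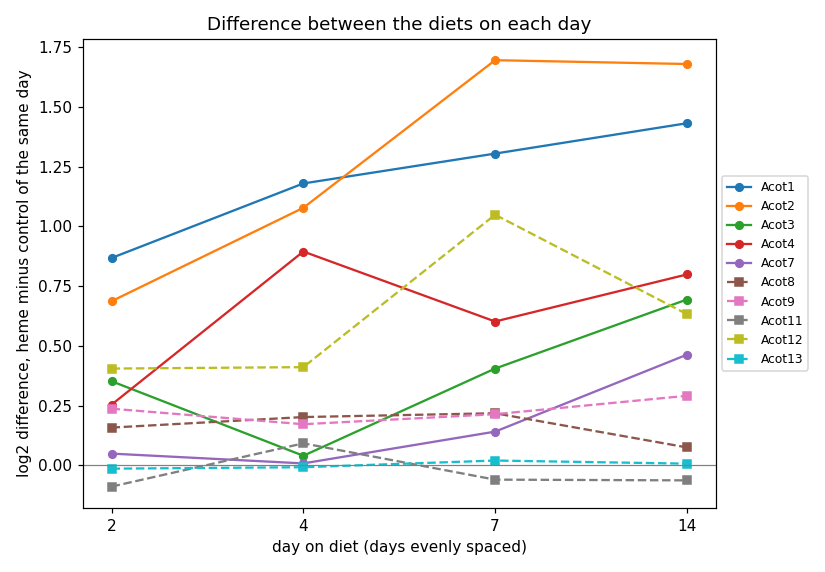
Log2 difference between the heme pool and the control pool of the same day, for days 2, 4, 7 and 14 (evenly spaced on the axis), with 1 line per gene. Acot2 goes from 0.69 on day 2 to 1.70 on day 7, Acot7 stays under 0.15 until day 7 and reaches 0.46 on day 14, and Acot13 stays within 0.020 of 0.

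Each heme pool was also tested against the 5 control pools with limma. A heme day has 1 pool, which is assumed to vary like the control pools, and the 4 comparisons share those control pools. The p-values hold no spread between heme pools of 1 day, so that a diet effect and a deviating heme pool cannot be told apart in them. On day 2 no gene was called among those tested, with 1385 genes (9.26%) at an unadjusted p under 0.05. Of the 9 thioesterase genes tested, 4 were at that level, with log2 fold changes of 0.78 for Acot1 and 0.74 for Acot2 (adjusted p = 0.312 for both), 0.46 for Acot4 (adjusted p = 0.491) and 0.44 for Acot12 (adjusted p = 0.405).

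On day 4 Acot2 was the single gene called, 0.00669% of those tested, and Acot1 stood at 1.10 log2 with an adjusted p of 0.151. At an unadjusted p under 0.05 were 7.02% of all genes. The Acot2 value (log2 fold change 1.15, adjusted p = 0.0483) lay close to the threshold. It failed the test once the control pool of day 0, 2, 4, 7 or 14 was left out (adjusted p = 0.12, 0.234, 0.132, 0.339 and 0.347), with no filter (0.0908), with no intensity trend (0.0887) and with only that heme pool and the control pools in the fit (0.0524).

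In the heme pool of day 7 Acot1, Acot2 and Acot12 were called higher than in the control pools, against 0.883% of all genes called higher, 0.749% called lower and 16.8% at an unadjusted p under 0.05. The 244 genes called in either direction numbered 68, 20, 22, 16 and 8 when the control pool of day 0, 2, 4, 7 or 14 was left out. These shares were thus not stable. Having fewer control pools and lacking a given pool cannot be told apart in these fits. Smooth muscle markers averaged 9.18 log2 in this heme pool and 9.90 log2 in the control pool of its day. The log2 fold changes on day 7 were 1.51 for Acot1 (adjusted p = 0.00966), 1.72 for Acot2 (adjusted p = 0.00407) and 1.03 for Acot12 (adjusted p = 0.0267). Acot4 had 0.74 (adjusted p = 0.0935). Acot2 kept its call whichever control pool was left out. Acot1 lost its call when the control pool of day 2, 4 or 14 was left out (adjusted p = 0.0579, 0.0532 and 0.0558), and Acot12 when that of day 2, 4, 7 or 14 was (0.0923, 0.1, 0.0964 and 0.0622).

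In the heme pool of day 14 6 of the 9 were called higher than in the control pools, Acot1, Acot2, Acot4, Acot7, Acot9 and Acot12, against 11.3% of all genes called higher, 15.8% called lower and so 27.1% called either way, with 41% at an unadjusted p under 0.05. Acot2 was 1.64 log2 above the control mean (adjusted p = 0.00172) and Acot1 1.43 log2 (adjusted p = 0.00287). Acot4 had 0.85 (adjusted p = 0.0174), Acot12 0.79 (adjusted p = 0.00949), Acot7 0.50 (adjusted p = 0.00413) and Acot9 0.37 (adjusted p = 0.0396). Acot7 and Acot9 had passed the test on no earlier day, and whether day 14 differed from each earlier day was not tested. Acot9 was no longer called when the control pool of day 2, 4, 7 or 14 was left out (adjusted p = 0.0634, 0.0747, 0.0858 and 0.059). Acot8 had 0.13 on this day (adjusted p = 0.256).

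Whether the difference between the diets grew from the early days (2 and 4) to the late days (7 and 14), a question that the series title raises, was tested over the 8 pools of those days. With limma no gene was called in this comparison, with 990 genes (6.62%) at an unadjusted p under 0.05, and 2 of the 9 thioesterase genes were among these. The largest late-minus-early value of the family was that of Acot2, 0.81 log2 (95% interval 0.42 to 1.19, adjusted p = 0.406), followed by Acot12 with 0.43 (95% interval 0.075 to 0.79, adjusted p = 0.698) and Acot1 with 0.34 (95% interval -0.043 to 0.73, adjusted p = 0.774). Within the control pools, the slope on log2(day + 1) was called for no gene, with 1073 genes (7.18%) at an unadjusted p under 0.05. Among thioesterase genes only Acot12 was at that level, with a slope of 0.073 log2 per doubling of day + 1 (adjusted p = 0.681), and the slopes of the other 8 lay between -0.016 and 0.042.

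Genes whose levels ran most like those of Acot1 and Acot2 were sought by Pearson correlation over the 9 pools, among 420 other genes with a range of at least 1 log2. As the pools fall into diets and share days, these values only describe the pattern. Acot1 ran most like Ehhadh, the peroxisomal bifunctional enzyme (r = 0.994), followed by the aldo-keto reductase Akr1b8 and the fatty acid importer Slc27a2 (0.987 each), catalase (Cat, 0.981) and the lipoprotein lipase inhibitor Angptl4 (0.976). Acot2 ran most like Fabp1, which carries fatty acids through the cytosol (r = 0.994), Akr1b8 (0.989), the fatty acid hydroxylase Cyp4a10 (0.985), the malic enzyme Me1 (0.984) and Ehhadh (0.982). Within the family, Acot1 and Acot2 correlated with each other at 0.987, while Acot2 correlated with Acot12 at 0.960, with Acot4 at 0.931 and with Acot11 at -0.139.

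Relatives that the list of 10 leaves out, and other thioesterases, passed no test. Of 19 such genes, 16 were tested and limma called none in the comparison of diets, with 6 at an unadjusted p under 0.05, against 17% of all genes. Of these 6, Abhd17a, Nudt7 and Acot10 had positive log2 fold changes and the palmitoyl-protein thioesterases Ppt1 and Ppt2 and the lysophospholipase-like Lyplal1 negative ones, names chosen after their values were seen. Of the 16, 7 were higher, and the median log2 fold change was -0.018. Acot5 and Acot6, the last genes of the type I cluster, averaged 3.67 ± 0.04 and 5.37 ± 0.06 log2 with heme (SD, n = 4) and 3.63 ± 0.07 and 5.36 ± 0.05 log2 without (SD, n = 5). The log2 difference between the diets was 0.018 for Acot6. Acot5, like Acot3, was below the filter, where a difference on dim signal cannot be set beside those of Acot1, Acot2 and Acot4. The 2 lowest p-values of the list were those of Abhd17a, a depalmitoylating enzyme (0.22, adjusted p = 0.156), and Nudt7, a coenzyme A diphosphatase rather than a thioesterase (0.17, adjusted p = 0.175). Acot10, a close copy of Acot9 whose signal may not be separable from it, had 0.25 (adjusted p = 0.217).

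Of the acyl-CoA synthetases, which run the opposite reaction, 1 of 16 tested was called, Slc27a2, higher by 1.45 log2 (adjusted p = 0.00601), where 0.595% of all genes tested were called higher. The lowest p among the rest was that of the transporter Slc27a4 (0.24, adjusted p = 0.0874), and the list's median was 0.029. Of 18 tested genes of coenzyme A synthesis and breakdown 2 rose, Ppcs, which joins cysteine to phosphopantothenate on the way to coenzyme A (0.58, adjusted p = 0.0051), and the pantetheinase Vnn1 (1.26, adjusted p = 0.00601), with a list median of 0.033, against the same 0.595% of all genes.

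Peroxisomal oxidation, which yields shortened acyl-CoA that peroxisomal thioesterases can split, had 9 of 18 tested genes called higher and none lower, with a median of 0.23, against 0.595% of all genes called higher and 0.0736% lower. The largest values were 1.56 for the thiolase Acaa1b (adjusted p = 0.00644), 1.16 for Ehhadh (adjusted p = 0.00601) and 0.83 for the branched-chain oxidase Acox2 (adjusted p = 0.0316). The other 6 were the fatty acid transporter Abcd3 (0.59), the second bifunctional enzyme Hsd17b4 (0.54), the carnitine octanoyltransferase Crot (0.49), the isomerase Ech1 (0.37), the thiolase Acaa1a (0.35) and the reductase Decr2 (0.22). With the day as a block, where 0.461% of all genes were called higher, 6 of the 9 stayed called, and Acox2, Acaa1a and Decr2 did not (adjusted p = 0.0628, 0.0716 and 0.136).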

How the data were processed

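The labels' protocols describe RNA of colon scrapings, pooled by diet and day and hybridised to Affymetrix whole-transcript arrays. The values used are the log2 expression values deposited by the authors, made with RMA per the submitters' processing notes (version not given in the sources used here). The method quantile-normalizes the arrays together (array medians 5.895 to 5.963 log2), and its median polish can give several arrays the same value. Arrays have no read depth: their number, 9, limits the precision.

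Of 35556 probesets, 21789 had 1 gene symbol in the platform annotation, 1621 had several and were left out, and 12146 were unnamed here. By Entrez ID 21698 were matched to the RefSeq gene table of GRCm38.p6, with 0 symbols changed. The 14953 of 19938 genes with a mean at or above the 25th percentile (4.716 log2) were tested with limma 3.58.1 in R 4.3.3 (lmFit, eBayes with an intensity trend, Benjamini-Hochberg over all genes tested, called under 0.05), after a test on simulated data. Day comparisons had a coefficient for each heme pool. Tables and figures used Python 3.11.15 and matplotlib 3.10.9. The members and lists were chosen with earlier results of these data known. All 10 listed genes are named, and of the other lists the called genes and, with fewer than 2 called, those with the lowest p. Names of uncalled or unlisted relatives, and the genes most like Acot1 and Acot2, are given as descriptions.

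The labels give pools of days 2, 4, 7 and 14 a shared day, not shared animals. Deviations from the diet means of same-day pools correlated at 0.651, -0.005, 0.333 and 0.168 on days 2, 4, 7 and 14 over all genes tested. The heme pools of days 4, 7 and 14 correlated more with a control pool of another day. These values were 0.106 (control day 7), 0.422 (control day 14) and 0.265 (control day 4). Only on day 2 was the same-day value the highest for the heme pool. Blocking on the day uses those 8 pools, so the day 0 control pool drops out, and it is given beside a result whose call it changes. Alternatives were no filter, no intensity trend, arrays centred on their medians, the mean of all probesets and each pool left out in turn. Leaving out both pools of a day, and fitting a heme day without the other heme pools, were added after the data were seen.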

Additional observations from a re-analysis of the deposited data

Results flagged for a closer look

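Among the 20 groups of pools (10 genes in 2 diets), 2 held a pool far from the others of its group by Dixon's test, where chance flags about 1 in 20 groups. The control pool of day 7 was high for Acot1, at 6.55 log2, with a gap of 0.729 of the range of the control pools. Without that pool the log2 fold change of Acot1 was 1.26 (limma adjusted p = 0.0114). The control pool of day 4 was low for Acot8, at 8.18 log2, with a gap of 0.749 of the range. Without it the log2 fold change of Acot8 was 0.12 (limma adjusted p = 0.303).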

How the results depend on the processing

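Of the 4 thioesterase genes called between the diets, 4 were called with arrays centred on their medians, 3 with no filter or no intensity trend, and 2 (Acot1 and Acot2) with the day as a replicate block, the day 0 pool then dropping out. The mean of all probesets also gave 4, but each of these genes has 1 probeset, so that this setting leaves their own values unchanged. Leaving out single pools gave 2 to 4 calls, leaving out both pools of day 2 gave 3, and leaving out both of day 7 gave 0. On day 4 the 1 call became 0 with no filter, no intensity trend or only that heme pool and the control pools in the fit, and 2 with centred arrays. It became 0 whichever control pool was left out. Leaving out another heme pool cannot test a day's calls, as each heme pool has its own coefficient and the estimates stay the same. On day 7 the 3 calls became 1 to 3 without single control pools, and on day 14 the 6 became 5 to 6. Over all genes, the 244 calls of day 7 became 93 with no filter and 115 with no intensity trend. Day 2, the late-minus-early comparison and the control slope gave 0 calls under every alternative run. Of single genes the sign changed for Acot11 alone, a difference close to 0: leaving out single pools gave -0.033 to 0.015 (above 0 without the control pool of day 2 or 14 or the heme pool of day 7), and it was 0.009 and 0.012 without both pools of day 7 or day 2. The cause of these changes was not tested. Each heme day rests on 1 pool, and Acot3 and the control level of Acot12 on dim signal.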
